A study of Mus musculus with 16 samples.

Results

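The genes of glycolysis and glycogen metabolism were examined in skeletal muscle of 16 male mice fed a high-fat diet, as 37 genes listed by symbol. No measured value entered the rule, but the list was made with earlier results of these data known. The 37 symbols matched 38 of the 55471 rows of the count table, because Aldoa names 2 neighbouring rows. Of these 38 rows, 37 were among the 14331 rows that passed the filter on low counts. The row that did not pass was Aldoc, an aldolase known from brain.

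Muscle obtains glucose 6-phosphate from blood glucose, through hexokinase, and from its own glycogen, through glycogen phosphorylase. Glycolysis then carries it to pyruvate, which is reduced to lactate or enters the mitochondria, and this route is most developed in fast-twitch fibers. Glycogen is built by UDP-glucose pyrophosphorylase, glycogenin, glycogen synthase and the branching enzyme. Phosphorylase kinase and protein phosphatase 1, which glycogen-targeting subunits hold at the particle, switch the balance between storage and breakdown.

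The samples were 10 mice labelled heterozygous (Npr1+/-) and 6 littermates labelled wildtype (Npr1+/+). Npr1 encodes guanylyl cyclase A (GCA), the receptor of atrial natriuretic peptide, and the Npr1tm1Gar allele is a germline disruption present in every tissue and not only in muscle, on a C57BL/6J background. The mice are described as 12 weeks old and were fed for 12 weeks with 60% of energy from lipid. The age at which the diet began, and which muscle was taken, are not given in the sources used here. They came from 4 cages, numbered 675 to 678, which held 2, 3, 1 and 4 mice labelled Npr1+/- and 2, 1, 2 and 1 labelled Npr1+/+ in that order. Body weight was 43.55 ± 3.79 g (SD, n = 10) in mice labelled Npr1+/- and 47.4 ± 4.69 g (SD, n = 6) in mice labelled Npr1+/+. The study compared the labels to ask how partial loss of GCA alters the muscle transcriptome of obese mice.

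Libraries held 15273472 to 59682677 counted fragments. Npr1 itself ranged from 9.83 to 22.2 CPM (fragments of a gene scaled to a common library total), with a median of 12.0, in libraries labelled Npr1+/-, and from 10.4 to 13.4, with a median of 12.4, in those labelled Npr1+/+, so its mRNA was not lower in the first (log2 difference 0.09 ± 0.20 SE, adjusted p = 1 by edgeR's quasi-likelihood fit, Benjamini-Hochberg over all tested genes). The exons that the allele disrupts are not given in the sources used here, and the groups are therefore named as labelled throughout. All 7 skeletal muscle markers passed the filter, and together they made up 54452 to 92352 CPM. The muscle was fast, with a mean of 17879 CPM for Myh4, the myosin of the fastest fibers, and 2.76 CPM for Myh7, the slow myosin, of which mouse 6 labelled Npr1+/- had 28.6. Libraries also differed in how long genes stood against short ones. A length index, the median log2 deviation of the longest genes (6602 bases or more) minus that of the shortest (2489 or fewer), members left out, ran from -0.66 to 0.98 in libraries labelled Npr1+/- and from -0.35 to 0.12 in those labelled Npr1+/+, and mice 7 and 6 labelled Npr1+/- were highest at 0.98 and 0.70. In bulk muscle, fewer cells of a type and less RNA per cell cannot be told apart.

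Together the 38 rows summed to 7.64 ± 0.82% of the TMM-scaled library size (SD, n = 16), with a lowest value of 6.07% and a highest of 9.04%. That size is a library's own total times a factor of 0.86 to 1.14, so these values are not shares of its fragments. On this scale the sum was 7.48 ± 0.61% (SD, n = 10) in mice labelled Npr1+/- and 7.91 ± 1.1% (SD, n = 6) in mice labelled Npr1+/+, and the ranges overlapped. To compare genes with each other, CPM was divided by the length in kb given for each gene with the counts. Levels below are the mean ± SD over the 16 mice on that scale. The length was not checked against the mRNA forms present in muscle, and the order of genes depends on it. Before division Eno3 had a mean of 7581 CPM and Gapdh of 6428, and their lengths are 1739 and 4133 bases.

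At the entry of the pathway, Hk2 (chromosome 6, 82725025 to 82774454 of GRCm38, minus strand), the insulin-regulated hexokinase of muscle, stood at 18.8 ± 14.8 CPM per kb. Hk1, the hexokinase of most other tissues, stood at 0.83 ± 0.49. Gpi1, which interconverts glucose 6-phosphate and fructose 6-phosphate, stood at 129 ± 34.2. Both hexokinases were thus far below the isomerase that follows them.

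Pfkm, the muscle subunit of phosphofructokinase, which commits fructose 6-phosphate to glycolysis, was at 1088 ± 347 CPM per kb, against 1.28 ± 0.38 for the liver subunit Pfkl and 0.40 ± 0.14 for the platelet subunit Pfkp. Aldoa, which splits fructose 1,6-bisphosphate, had the highest level of all 38 rows at 10297 ± 2040. Its second row, 799 bases of exon just upstream on chromosome 7 (126800790 to 126809108, minus strand), was at 116 ± 17.8, and Aldoc at 0.084 ± 0.048, from 1 to 21 fragments in a library. The lowest Aldoa library, at 6548, still stood above the highest Eno3 library, at 5707.

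In lower glycolysis the muscle enolase Eno3 reached 4359 ± 780 CPM per kb and the muscle phosphoglycerate mutase Pgam2 reached 2871 ± 729, next after Aldoa. Tpi1, which interconverts the triose phosphates, was at 1606 ± 443, Gapdh, the first oxidative step, at 1555 ± 352, and Pkm, which makes pyruvate, at 792 ± 91.3. Pgk1, the first ATP-forming step, was lower at 85.0 ± 8.23. It has 3 named copies that could share its reads, so its level is uncertain. Tpi1 has 6 such copies and Gapdh 2, and both stood higher. The isozymes of other tissues were near the floor of the pathway, with Eno1 at 5.92 ± 1.38, Pgam1 at 1.24 ± 0.34 and Eno2 at 0.23 ± 0.063.

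Among the enzymes that branch off, Ldha, which reduces pyruvate to lactate, was at 1152 ± 185 CPM per kb and the heart-type Ldhb at 78.2 ± 8.35. The 2 arms of the glycerol phosphate shuttle differed, with cytosolic Gpd1 at 349 ± 29.4 and mitochondrial Gpd2 at 23.8 ± 9.43. Fbp2, the muscle fructose 1,6-bisphosphatase, which runs the phosphofructokinase step in reverse, was at 47.5 ± 9.37.

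The enzymes that degrade glycogen were led by Pygm, muscle glycogen phosphorylase, at 1987 ± 543 CPM per kb. Its activating kinase has several subunits, of which regulatory Phka1 was at 118 ± 39.0, catalytic Phkg1 at 78.6 ± 10.9 and regulatory Phkb at 58.1 ± 12.1. On the side of synthesis, Ugp2, which makes UDP-glucose, was at 328 ± 62.0, the primer glycogenin Gyg at 172 ± 28.3, muscle glycogen synthase Gys1 at 89.0 ± 37.6 and the branching enzyme Gbe1 at 15.8 ± 3.30. Phosphorylase mRNA was thus far above synthase mRNA, and the lowest Pygm library, at 1181, lay above the highest Gys1 library, at 168.

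Of the proteins that steer glycogen, the phosphatase targeting subunits Ppp1r3c and Ppp1r3a stood at 198 ± 53.9 and 58.8 ± 16.5 CPM per kb, the glycogen phosphatase laforin (Epm2a) at 48.1 ± 6.67 and the glycogen-binding protein Stbd1 at 16.6 ± 3.01. The bifunctional enzymes that set fructose 2,6-bisphosphate, an activator of phosphofructokinase, were close to each other, with Pfkfb3 at 27.6 ± 19.6, Pfkfb1 at 23.4 ± 4.21 and Pfkfb4 at 16.7 ± 2.29. In the order by CPM per kb, ranges over the 16 mice separated neighbours at 4 places, namely Aldoa from Eno3, Pkm from Gpd1, Gbe1 from Eno1 and Eno1 from Pfkl. All other neighbours overlapped.

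**Figure D1:**
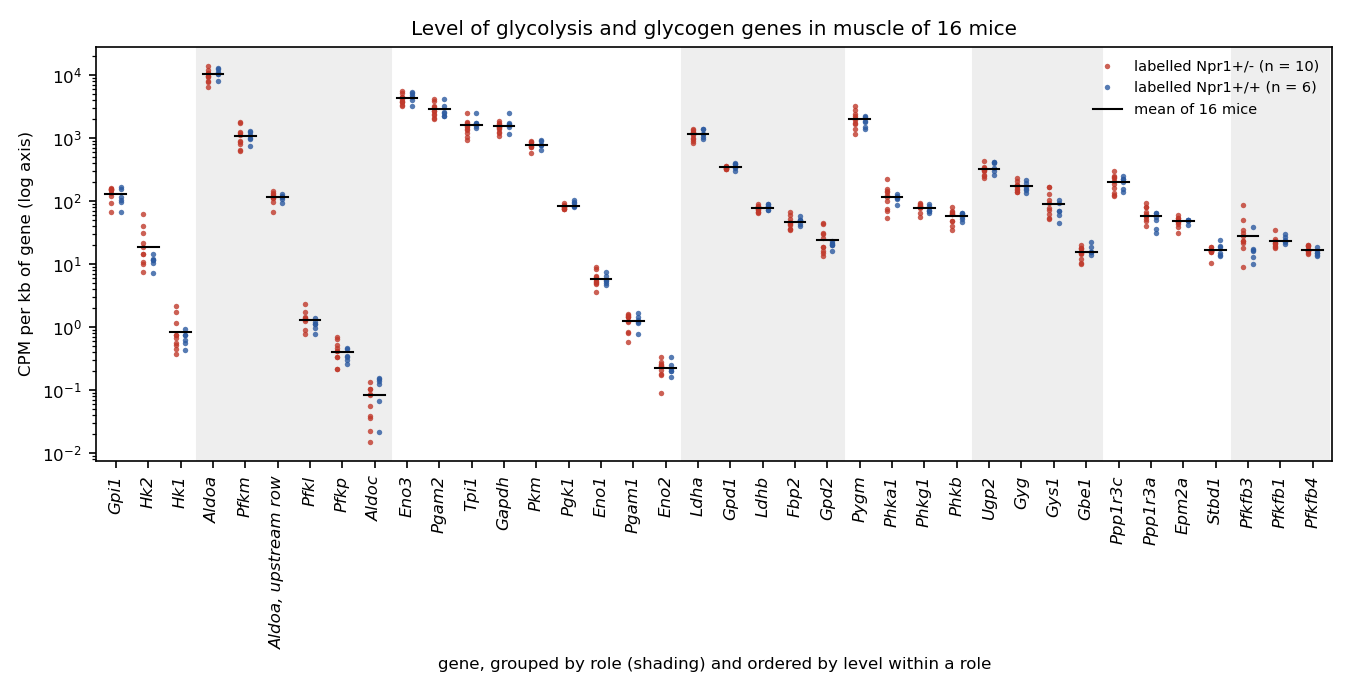
Level of each row in CPM per kb on a log axis, 1 point for each mouse, red for the 10 mice labelled Npr1+/- and blue for the 6 labelled Npr1+/+, with a bar at the mean of all 16; shading separates roles in the pathway. Muscle isozymes such as Aldoa at 10297 and Eno3 at 4359 stand far above the other isozymes of their families, and the colours overlap in every row.

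Each isozyme family with a muscle form was dominated by it. Aldoa made up 99.999 ± 0.00045% of the aldolase signal per kb (SD, n = 16, also below), Pgam2 99.955 ± 0.015% of the phosphoglycerate mutases, Eno3 99.85 ± 0.052% of the enolases and Pfkm 99.84 ± 0.039% of phosphofructokinase. Hk2 held 95.2 ± 1.63% of the 2 hexokinases and Ldha 93.5 ± 1.01% of the lactate dehydrogenases. The 6-phosphofructo-2-kinases were the exception, with 37.5 ± 13.5% from Pfkfb3, 36.6 ± 9.70% from Pfkfb1 and 25.9 ± 5.55% from Pfkfb4. Pfkfb2, which also passed the filter, is not a member and was left out of these shares.

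Variation between mice was as uneven as the levels. Hk2 differed 8.64-fold and Pfkfb3 9.67-fold between the lowest and the highest mouse, and 95.2% and 95.1% of all tested genes had a smaller SD of log2 CPM than these. Hk1 differed 5.82-fold, Phka1 4.07-fold and Gys1 3.68-fold. Gpd1 was the steadiest, with a 1.38-fold range and only 0.488% of genes of smaller SD, followed in order of SD by Pgk1 at 1.39-fold, Ldhb at 1.40-fold and Pkm at 1.58-fold, with 1.28%, 2.80% and 4.81% of genes of smaller SD. The highest level of Hk2, Pfkfb3, Gys1, Gpd2 and Phka1 was in each case in mouse 7 labelled Npr1+/-, the lightest of all at 36.5 g.

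Promoter windows of the members that the results turn on are printed from RefSeq (GRCm38.p6), each running from 250 bases before to 50 after an annotated start, 5′ to 3′ on the strand of the gene. Among the members that passed the filter, Ppp1r3c had the largest F statistic for cage, and Hk2 and Pfkfb3 varied most between mice. Pfkfb3 has 2 windows, of which the one that holds CACGTG is shown. In these 3 windows capitals mark ACGTG on either strand, the core letters of the element bound by hypoxia-inducible factors, and where the capitals read CACGTG both strands match.
Ppp1r3c (chr19:36736555-36736854, minus strand): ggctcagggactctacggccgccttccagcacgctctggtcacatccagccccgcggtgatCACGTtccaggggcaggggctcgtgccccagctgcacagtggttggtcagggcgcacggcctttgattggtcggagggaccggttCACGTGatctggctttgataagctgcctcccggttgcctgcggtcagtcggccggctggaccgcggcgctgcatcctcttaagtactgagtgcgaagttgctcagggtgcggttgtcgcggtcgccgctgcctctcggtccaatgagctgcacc
Hk2 (chr6:82774405-82774704, minus strand): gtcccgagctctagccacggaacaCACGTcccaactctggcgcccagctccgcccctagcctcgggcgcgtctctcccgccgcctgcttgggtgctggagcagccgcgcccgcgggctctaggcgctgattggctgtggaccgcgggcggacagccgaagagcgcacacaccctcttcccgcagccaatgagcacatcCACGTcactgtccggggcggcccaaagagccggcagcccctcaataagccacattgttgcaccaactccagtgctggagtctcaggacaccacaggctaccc
Pfkfb3 (chr2:11502041-11502340, minus strand): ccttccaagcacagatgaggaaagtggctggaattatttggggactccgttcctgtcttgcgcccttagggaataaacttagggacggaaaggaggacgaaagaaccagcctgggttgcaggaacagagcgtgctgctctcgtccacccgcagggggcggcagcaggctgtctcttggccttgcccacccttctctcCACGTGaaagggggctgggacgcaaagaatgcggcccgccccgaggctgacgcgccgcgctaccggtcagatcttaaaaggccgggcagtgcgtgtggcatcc

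Pgam2 and Eno3 are shown because they were the most abundant members after Aldoa and varied together. In their windows capitals mark CATTCC on either strand, the core of the MCAT element bound by TEAD factors in muscle.
Pgam2 (chr11:5803747-5804046, minus strand): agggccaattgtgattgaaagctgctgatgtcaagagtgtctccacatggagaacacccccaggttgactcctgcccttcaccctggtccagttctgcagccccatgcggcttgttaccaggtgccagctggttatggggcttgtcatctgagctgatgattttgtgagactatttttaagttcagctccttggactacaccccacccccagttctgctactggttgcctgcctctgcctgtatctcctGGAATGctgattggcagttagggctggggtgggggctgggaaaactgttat
Eno3 (chr11:70656926-70657225, plus strand): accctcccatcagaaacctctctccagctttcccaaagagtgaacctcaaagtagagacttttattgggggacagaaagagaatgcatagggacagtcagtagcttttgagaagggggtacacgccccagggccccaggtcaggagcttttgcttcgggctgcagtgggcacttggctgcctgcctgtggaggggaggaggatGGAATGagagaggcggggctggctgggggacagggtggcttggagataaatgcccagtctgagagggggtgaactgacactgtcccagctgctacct

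RefSeq gave 53 windows for 36 of the 37 members, with Gpd1 not matched, among 32851 windows in all. ACGTG, searched on both strands and including every CACGTG, was in 21 member windows (39.6%) and in 19.62% of all windows. CACGTG alone was in 6 member windows (11.3%), those of Fbp2, Gyg, Ldha, Pfkfb3, Pfkm and Ppp1r3c, and in 7.15% of all. CATTCC was in 7 (13.2%, against 14.66%). The outer letters of the MEF2 element, CTA and TAG with 4 bases of any kind between them, were in 3 (5.66%, against 3.69%), those of Ldhb, Phka1 and Ppp1r3a. The 4 middle bases were not required to be A or T, so these need not be MEF2 elements. All of these counts are matches of letters and not measured binding.

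Between the labels, no member passed the test. With cage and body weight in the edgeR fit, 0 of 37 rows passed at an adjusted p of 0.05, beside 0% of all 14331 genes, and 0 of 37 had an unadjusted p under 0.05, beside 1.05% of all genes. DESeq2 likewise gave 0 and 0 members, beside 0.0419% and 1.2% of all genes, and limma-voom 0 and 0, beside 0% and 1.05%. With a standard error of 0.32 for Hk2 and 0.33 for Pfkfb3, sizeable differences of these genes could not be detected. No member had values that did not overlap between the labels, beside 0.00698% of all genes, which is 1 gene. The median log2 difference, Npr1+/- minus Npr1+/+ as labelled, was -0.09 over the members and -0.01 over all genes, and members ran from -0.34 to 0.40. The estimate was below 0 in 27 of 37 members, beside 51.6% of all genes. This balance rested on the covariates, since with the label alone 17 of 37 were below 0, beside 47.8% of all genes.

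The order by role was uneven, although no group held a called gene. All 9 tested genes of lower glycolysis and all 4 of glycogen synthesis had estimates below 0, as did 3 of 4 of glycogen breakdown and 4 of 5 of the lactate and glycerol phosphate group and 3 of 4 of the glycogen regulators. Of the phosphofructokinase and aldolase rows 2 of 5 were below 0, of the fructose 2,6-bisphosphate enzymes 1 of 3 and of the hexose phosphorylation group 1 of 3. These counts describe estimates of which none had an unadjusted p under 0.05, in a fit whose excess below 0 was not seen with the label alone.

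Ugp2 had the smallest p of the members. It ranged from 716 to 1309 CPM, with a median of 961, in mice labelled Npr1+/-, and from 814 to 1302, with a median of 1137, in mice labelled Npr1+/+. The ranges overlapped almost wholly, and the log2 difference was -0.26 ± 0.17 SE (unadjusted p = 0.145, adjusted p = 1 in the edgeR fit, as for every member below).

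Pgam1 gave the most negative estimate, from very few fragments. It ranged from 1.15 to 3.23 CPM, with a median of 2.7, under the label Npr1+/-, and from 1.54 to 3.36, with a median of 2.46, under Npr1+/+. Its log2 difference was -0.34 ± 0.22 SE (p = 0.152 in the edgeR fit). Libraries held 24 to 177 fragments of it, and 2 named pseudogene rows exist that could share its reads, so its level is uncertain.

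Pfkfb3, whose kinase activity favours glycolysis, had the most positive estimate. It ranged from 68.9 to 666 CPM, with a median of 194, under the label Npr1+/-, and from 75.8 to 298, with a median of 124, under Npr1+/+. The 3 highest mice were mouse 7 (666) and mouse 2 (384), labelled Npr1+/-, and mouse 4 (298), labelled Npr1+/+, all of cage 678. The log2 difference was 0.40 ± 0.33 SE (p = 0.245 in the edgeR fit), with 0.20 as its lowest value when 1 mouse was left out, mouse 5 labelled Npr1+/+. With the label alone in the fit it was 0.81 (unadjusted p = 0.0495).

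Hk2 ranged from 44.7 to 380 CPM, with a median of 100.2, under the label Npr1+/-, and from 44.01 to 85.7, with a median of 69.3, under Npr1+/+. Of the 10 mice labelled Npr1+/-, 7 lay above every mouse labelled Npr1+/+. The log2 difference was 0.30 ± 0.32 SE (p = 0.370 in the edgeR fit), and it ran from 0.0307 without mouse 4 to 0.62 without mouse 5, both labelled Npr1+/+. Without cage and weight in the fit it was 1.05 (unadjusted p = 0.0130), and body weight differed between the labels as given above.

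The other members of the 12 with the smallest p had smaller estimates, none of them past the threshold. Estimates were -0.16 ± 0.13 SE for Pgk1, -0.23 ± 0.20 for Pgam2, -0.19 ± 0.18 for Eno3, -0.13 ± 0.14 for Pkm, -0.11 ± 0.13 for Ldhb and -0.12 ± 0.15 for Fbp2. They were 0.12 ± 0.13 for Pfkfb4 and 0.12 ± 0.16 for the upstream row of Aldoa. Unadjusted p-values of these genes ran from 0.210 for Pgk1 to 0.441 for the upstream row of Aldoa in the edgeR fit.

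Within cages the direction was seldom shared. Mice labelled Npr1+/- had the lower mean log2 CPM in all 4 cages for Aldoa, Tpi1, Ldhb and Ugp2, and in no cage for Pfkfb3 and the upstream row of Aldoa. For Hk2 the difference was 1.43 in cage 675, -0.23 in cage 676, 1.75 in cage 677 and 0.54 in cage 678. Cages 676 and 678 held 1 mouse labelled Npr1+/+ each, and cage 677 held 1 labelled Npr1+/-.

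Composition of the isozyme families was compared by an exact two-sided permutation test that took every one of 8008 divisions into 10 and 6 mice, adjusted over 7 families. It takes no account of cage or body weight. Hk2 held 95.9 ± 1.29% of the hexokinase signal (SD, n = 10) under the label Npr1+/- and 94.2 ± 1.66% (SD, n = 6) under Npr1+/+, a difference of 1.72 points (exact permutation p = 0.0388, adjusted p = 0.147). Pfkfb1 held 32.8 ± 8.86% and 42.8 ± 8.07% of the summed signal of Pfkfb1, Pfkfb3 and Pfkfb4, a difference of -10.0 points (exact permutation p = 0.0420, adjusted p = 0.147). Neither passed the adjustment, and with labels exchanged within cages alone, over 360 divisions, the exact permutation p was 0.0583 for each. The other 5 families differed by at most 0.088 points, with adjusted p from 0.319 to 0.954 in the exact permutation test.

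**Figure D2:**
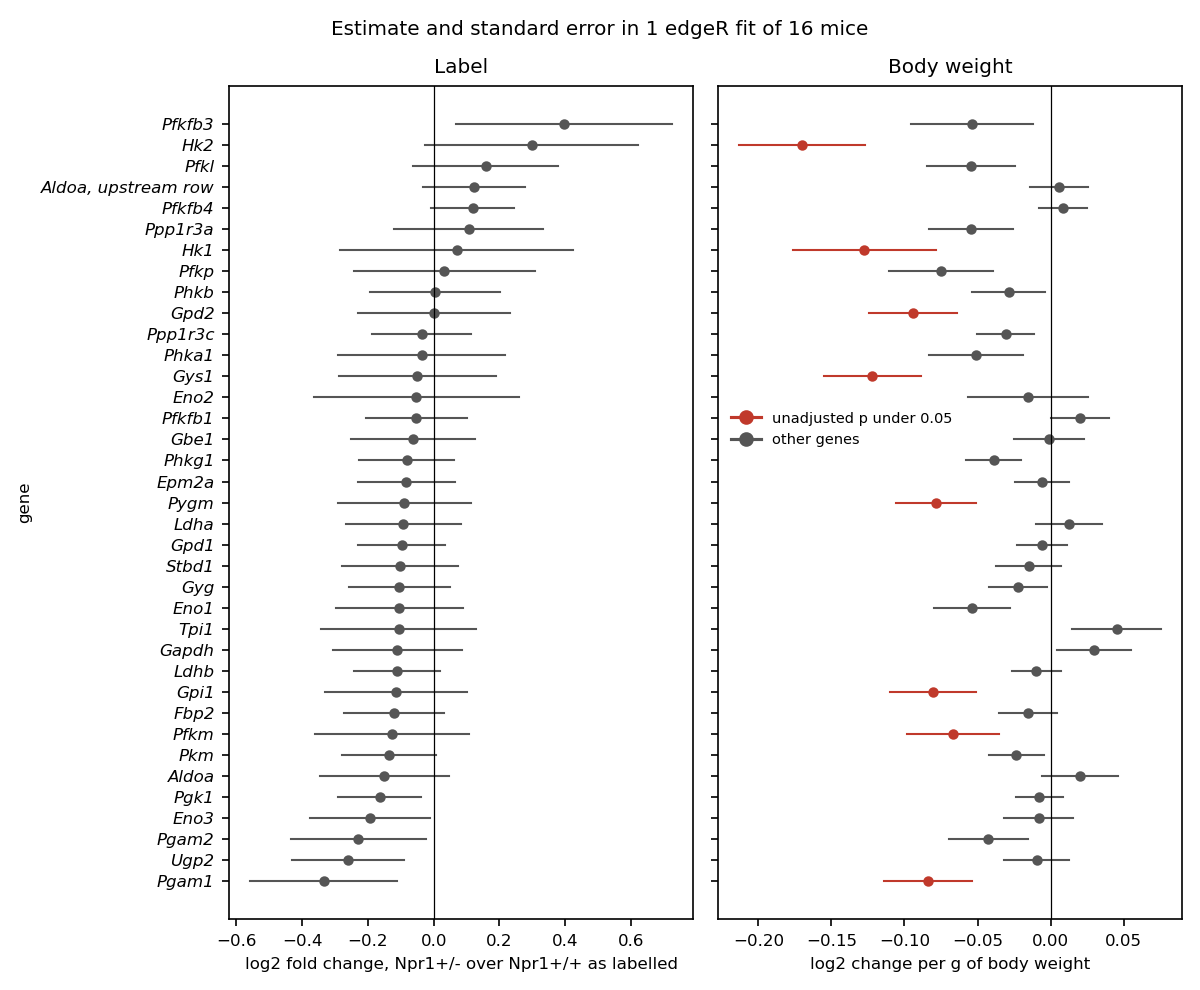
Estimate (point) and standard error (line) of each tested row in the edgeR fit of 16 mice; left, log2 difference of mice labelled Npr1+/- from mice labelled Npr1+/+; right, log2 change per g of body weight, with unadjusted p under 0.05 in red. Most rows lie below 0 in both panels, and the 8 red rows are led by Hk2 at -0.17 per g.

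Slopes on body weight were mostly negative. In the same fit, with label and cage in it, 30 of 37 slopes were below 0, beside 52.7% of all genes. No slope passed at an adjusted p of 0.05, beside 0% of all genes. At an unadjusted p under 0.05, 8 of 37 members had a slope in either direction, beside 17.1% of all genes, and all 8 were negative, beside 12.3% of all genes. By unadjusted p, limma-voom gave 9 members, beside 17% of all genes, and DESeq2 10, beside 19.7%, and after adjustment limma-voom gave 0 while DESeq2 gave 2, Hk2 and Gys1, beside 0.181% of all genes. With library size in place of TMM scaling, 23 of 37 slopes were below 0, beside 45.1% of all genes.

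Hk2 had the steepest slope, at -0.17 ± 0.043 SE log2 units per g (p = 0.00113, adjusted p = 0.245 in the edgeR fit). It stood at 380 CPM in the mouse of 36.5 g, at 186 in the mouse of 39.4 g and at 130 in the mouse of 40.1 g, all labelled Npr1+/-. The 4 mice above 48 g had 44.01 to 68.9 CPM. Mouse 6 labelled Npr1+/- departed from this order, with 237 CPM at 46.2 g, and so did mouse 4 labelled Npr1+/+, with 85.7 CPM at 40.5 g. Hk1 followed with -0.13 ± 0.049 per g (p = 0.0192, adjusted p = 0.247 in the edgeR fit), and Gpi1 with -0.081 ± 0.029 (p = 0.0140), so that all 3 genes of hexose phosphorylation and isomerisation were among the 8.

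Glycogen synthase was next. Gys1 ranged from 253 to 803 CPM, with a median of 413, under the label Npr1+/-, and from 218 to 506, with a median of 334, under Npr1+/+, and its slope was -0.12 ± 0.033 per g (p = 0.00204, adjusted p = 0.245 in the edgeR fit). Pygm, which degrades what Gys1 makes, had the same sign, with 3801 to 10416 CPM and a median of 6464 under Npr1+/-, 4585 to 7143 and a median of 5954 under Npr1+/+, and a slope of -0.078 ± 0.028 (p = 0.0118). The enzymes of both directions of glycogen metabolism had slopes of the same sign, and both were highest in mice 6 and 7 labelled Npr1+/-, of 46.2 and 36.5 g.

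Gpd2, of the mitochondrial arm of the glycerol phosphate shuttle, ranged from 86.7 to 293 CPM, with a median of 146, under the label Npr1+/-, and from 104 to 152, with a median of 135, under Npr1+/+. Its slope was -0.094 ± 0.030 per g (p = 0.00652 in the edgeR fit). Slopes were -0.084 ± 0.030 for Pgam1 (p = 0.0127) and -0.067 ± 0.031 for Pfkm (p = 0.0492). The abundant enzymes Tpi1 and Gapdh had slopes of the other sign, at 0.045 ± 0.030 and 0.030 ± 0.025, neither of them with a p under 0.05.

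**Figure D3:**
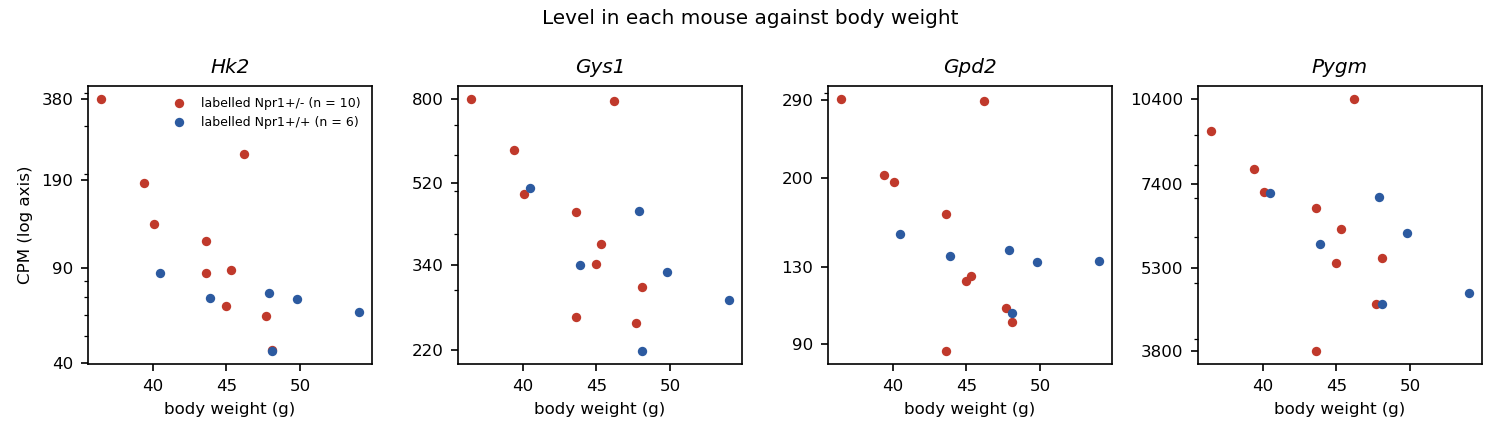
CPM on a log axis against body weight in g for Hk2, Gys1, Gpd2 and Pygm, 1 point for each mouse, red for the label Npr1+/- (n = 10) and blue for Npr1+/+ (n = 6). The lightest mouse, at 36.5 g, has 380 CPM of Hk2, the mice above 48 g have at most 68.9, and the red point at 46.2 g with 237 CPM stands off the trend.

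In the edgeR fit, leaving out 1 mouse changed how many slopes passed. Without mouse 3 labelled Npr1+/- (cage 675, 40.1 g), 12 of 37 members passed at an adjusted p of 0.05, 11 of them with a negative slope, namely Eno1, Gpd2, Gpi1, Gys1, Hk1, Hk2, Pfkl, Pfkm, Pfkp, Pgam1, Pygm and Tpi1, beside 22.1% of all genes. The Hk2 slope was then -0.23 per g. Without mouse 7 labelled Npr1+/-, the lightest, slopes were shallower, at -0.11 for Hk2, -0.071 for Hk1 and -0.042 for Pfkm. Without any mouse other than mouse 3, 0 members passed, and 6 to 11 had an unadjusted p under 0.05, beside 12% of all genes for the 6 and 19.9% for the 11.

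Markers of fibers and of other cells were read from the same fit, in which none passed for body weight after adjustment. At an unadjusted p under 0.05, 3 of 10 fast fiber markers had a slope on weight, while 4 of the 10 had slopes above 0. The 3 were led by Myh1 (-0.23 per g, p = 0.00234, adjusted p = 0.245 in the edgeR fit) and Myh4 (-0.21 per g, p = 0.00254, adjusted p = 0.245). The counts were 2 of 10 for slow fibers, 1 of 7 for skeletal muscle, 3 of 6 for macrophages (Adgre1, C1qa and Lyz2, all 6 estimates above 0), 2 of 5 for erythrocytes (Alas2 and Hbb-bt, all 5 above 0), 2 of 5 for endothelium (Cdh5 and Kdr, all 5 below 0) and 2 of 6 for tendon and fibroblasts (Dcn and Tnmd). They were 0 of 6 tested for adipocytes, 0 of 4 for Schwann cells and 0 of 1 tested for B cells. The part of these markers in the slopes of the members was not tested.

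The length index of the libraries, described after the data had been seen, was set beside the members. With it as a further term in the edgeR fit, 10 of 37 members had a positive and 5 a negative coefficient at an adjusted p of 0.05, beside 22.9% and 19.7% of all genes, so neither share stood far from that of all genes. The 10 were Hk2 (1.19 ± 0.20 SE log2 per unit), Hk1 (1.17 ± 0.29), Phka1 (0.94 ± 0.15), Gpd2 (0.88 ± 0.13), Pfkp (0.88 ± 0.21), Gys1 (0.82 ± 0.19), Pfkm (0.67 ± 0.20), Phkb (0.67 ± 0.12), Pygm (0.57 ± 0.17) and Eno1 (0.50 ± 0.18). The 5 were Tpi1 (-0.76 ± 0.16), Aldoa (-0.66 ± 0.12), Ldha (-0.56 ± 0.11), Eno3 (-0.55 ± 0.13) and Gapdh (-0.47 ± 0.16). The first had a median length of 6114 bases and the second of 2911.

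With the length index in the fit, 7 of 37 members had an unadjusted p under 0.05 for body weight, all with negative slopes, beside 6.78% of all genes. Without mice 6 and 7, the pair of highest index, 6 members did so, again all negative, beside 8.61% of all genes. With an index of GC content made in the same way, 2 members did so, beside 4.21%. For the label the count was 0 in all 3 settings.

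**Figure D4:**
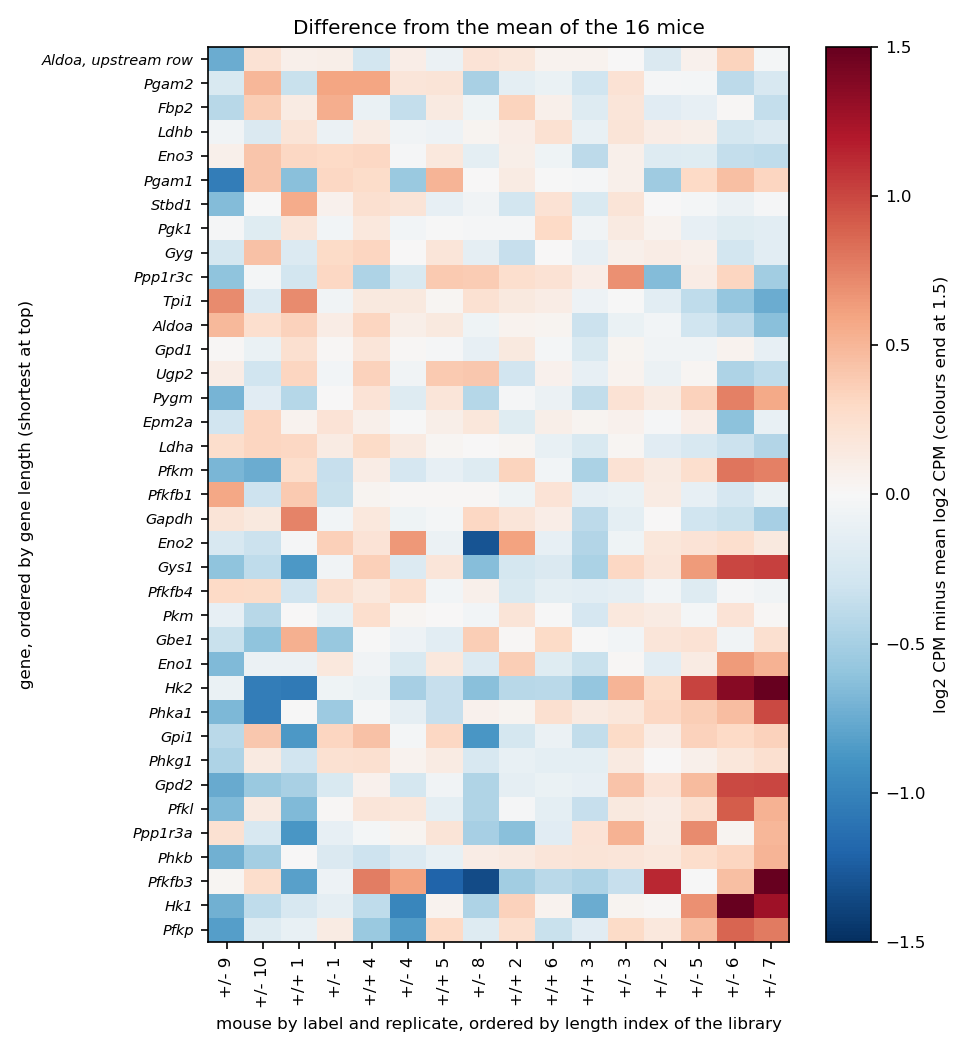
Log2 CPM minus the mean of the 16 mice for each tested row, with rows ordered by gene length, shortest at the top, and mice by the length index of the library, lowest at the left; red is above and blue below the mean, and colours end at 1.5. Hk2, Hk1, Gpd2 and Gys1 are red and Aldoa and Tpi1 blue in mice 6 and 7 labelled Npr1+/- at the right.

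Between cages, Ppp1r3c had the smallest p of the members. In the F test of the 4 cages, 6 of 37 members had an unadjusted p under 0.05, beside 7.36% of all genes, and none passed after adjustment, beside 0.0279% of all genes, which is 4 genes. DESeq2 gave 7 unadjusted members, beside 10.6% of all genes, and 1 adjusted, Ppp1r3c, beside 0.544%. For limma-voom the counts were 4, beside 5.37%, and 0.

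Ppp1r3c, the subunit that targets protein phosphatase 1 to glycogen, was lowest in cage 678. Its 5 mice had 331, 344, 362, 379 and 446 CPM. The range was 557 to 835 in the 4 mice of cage 675, 509 to 686 in the 4 of cage 676, and 431 to 603 in the 3 of cage 677, so that cage 678 overlapped cage 677 alone. Means were 666 ± 119, 629 ± 82.6, 532 ± 89.9 and 372 ± 45.1 CPM (SD) in cages 675 to 678, and the F statistic was 11.4 (p = 0.000287, adjusted p = 0.242 in the edgeR fit). The mouse of cage 678 labelled Npr1+/+, at 379 CPM, lay among its 4 cage mates labelled Npr1+/-.

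Pfkfb3 was highest in cage 678, with 179 to 666 CPM and a mean of 358 ± 187 (SD, n = 5), against means of 156, 130 and 135 in cages 675, 676 and 677. Its F statistic was 3.92 (p = 0.0282 in the edgeR fit). Fbp2 was lowest there, at 56.7 ± 5.56 CPM against 73.5, 82.4 and 70.0 (F = 3.65, p = 0.0351). Pgam1 (F = 4.47, p = 0.0183), Gpd2 (F = 3.64, p = 0.0354) and Hk2 (F = 3.55, p = 0.0381) completed the 6, followed by Hk1 (F = 3.04, p = 0.0592) and Pfkp (F = 2.61, p = 0.0872). Cage 678 also had the lowest mean weight, at 41.8 g, and 4 of its 5 mice were labelled Npr1+/-, so cage, weight and label are only partly separable in these 16 mice. Without mouse 3 labelled Npr1+/-, 6 members passed after adjustment, namely Gpd2, Gys1, Hk1, Hk2, Pgam1 and Ppp1r3c, beside 6.08% of all genes. Of the markers, 2 of 10 for fast fibers had an unadjusted p under 0.05 for cage, Myh4 (F = 4.46, p = 0.0183, adjusted p = 0.656) and Myh1, as did 3 of 10 for slow fibers, 2 of 6 for macrophages, 2 of 5 for endothelium and 2 of 6 for tendon and fibroblasts. None passed after adjustment, and their part in these differences was not tested.

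**Figure D5:**
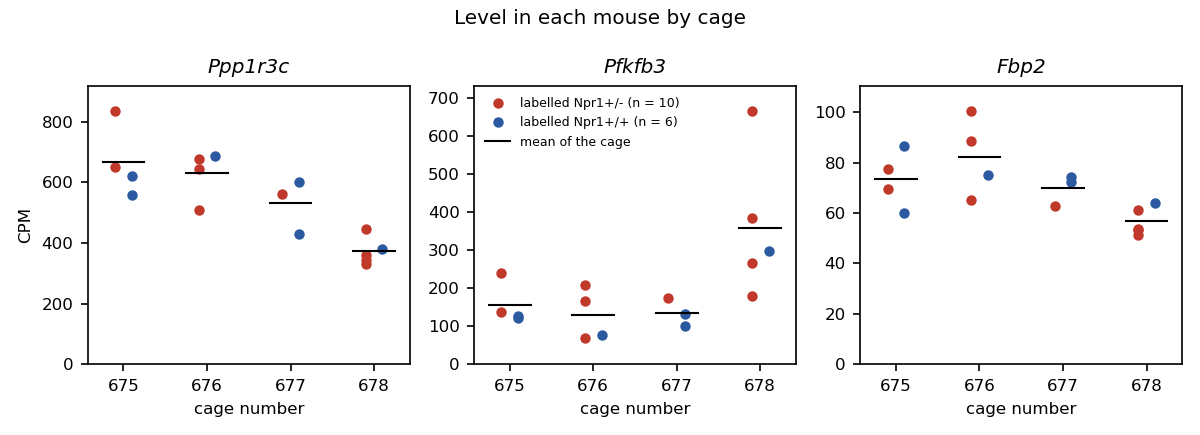
CPM of Ppp1r3c, Pfkfb3 and Fbp2 by cage number, 1 point for each mouse, red for the label Npr1+/- and blue for Npr1+/+, with a bar at the mean of the cage. In cage 678 Ppp1r3c spans 331 to 446 CPM and Fbp2 averages 56.7, their lowest, while Pfkfb3 averages 358, its highest.

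Because these genes differ between fiber types, their relation to fiber markers was fitted as one more term, the mean log2 CPM of 10 slow markers minus that of 10 fast markers. It ran from -10.4 to -8.58 in mice labelled Npr1+/- and from -9.98 to -8.98 in mice labelled Npr1+/+, far on the fast side in each mouse. No member passed after adjustment, beside 0.00698% of all genes, which is Myh7, itself one of the slow markers, and 1 of 37 had an unadjusted p under 0.05, beside 3.89% of all genes. DESeq2 gave 0 and 1, beside 0.0837% and 4.76%, and limma-voom 0 and 1, beside 0.00698% and 4.05%. Of the 6 adipocyte markers tested, 5 had an unadjusted p under 0.05 for the same term and all 6 were above 0, led by Lep (1.84, p = 0.00123, adjusted p = 0.769), and their part in the estimates of the members was not tested. The estimate was below 0 in 16 of 37, beside 50.1% of all genes.

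The gene was Hk1, at 0.77 ± 0.35 SE log2 units per unit of the marker difference (p = 0.0461, adjusted p = 0.941 in the edgeR fit). Pfkm (0.44 ± 0.24), Gys1 (0.38 ± 0.26), Hk2 (0.49 ± 0.35), Eno1 (0.28 ± 0.21), Pfkl (0.30 ± 0.24) and Gpd2 (0.30 ± 0.24) had positive estimates with p above 0.05, and Epm2a a negative one (-0.26 ± 0.16). Without mouse 6 labelled Npr1+/-, which had the highest marker difference at -8.58, the estimate of Hk1 was 0.067 and no member had an unadjusted p under 0.05, beside 1.28% of all genes, and the estimates of Hk2, Pfkl, Eno1, Gpd2 and Gys1 turned negative. With log2 CPM of Myh4 alone in place of the difference, 8 members passed after adjustment, a share near the 24.1% of all genes. Myh4 is a fast marker, and with its sign turned so that higher values are slower, 7 of the 8 were negative, Hk1 (-0.71) and Hk2 (-0.69) among them, against the positive estimates of both with the difference.

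Genes that act together were compared mouse by mouse in 6 pairs, each with a permutation test of 100000 resamples, adjusted over the 6. Pygm and its kinase subunit Phkg1 varied together (r = 0.81, permutation p = 7e-05, adjusted p = 0.000420, Spearman rho = 0.82 with permutation p = 0.000200, n = 16), also without the 2 mice farthest from the Pygm median (r = 0.76) and after centring on cage (r = 0.87). Gys1 and Ppp1r3a did so as well (r = 0.66, permutation p = 0.00572, adjusted p = 0.0114, rho = 0.56 with permutation p = 0.0267, r = 0.71 without 2 mice, 0.62 on cage-centred values).

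Pgam2 and Eno3, neighbours in the pathway, had r = 0.67 (permutation p = 0.00542, adjusted p = 0.0114, rho = 0.54 with permutation p = 0.0331), and 0.64 on cage-centred values. Without the 2 mice farthest from the Pgam2 median, mouse 1 labelled Npr1+/- and mouse 4 labelled Npr1+/+, r was 0.55 (permutation p = 0.0405). That value did not pass after adjustment over the 6 pairs. Hk2 and Pfkfb3 had r = 0.62 (permutation p = 0.0108, adjusted p = 0.0163, rho = 0.55 with permutation p = 0.0301) and 0.62 on cage-centred values. That relation rested on mice 7 and 6 labelled Npr1+/-, since r was 0.32 without them (permutation p = 0.264). The 2 lactate dehydrogenases (r = 0.25, rho = 0.19, permutation p = 0.354 and 0.491) and the 2 glycerol phosphate dehydrogenases (r = -0.10, rho = -0.06, permutation p = 0.717 and 0.829) did not pass. Of the 12 genes in these pairs, Hk2, Gys1, Gpd2, Pygm, Ldha and Eno3 were also among the 15 that moved with the length index, whose part in these relations was not tested.

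Of 47 further genes of these pathways and of glucose transport, 37 passed the filter. For the label none had an unadjusted p under 0.05, beside 1.05% of all genes, and 24 of 37 estimates were below 0, beside 51.6%. Among the smallest p-values were those of Adpgk, an ADP-dependent sugar kinase (0.15 ± 0.18 SE), and Pgp, a phosphatase (-0.13 ± 0.15).

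For body weight 6 of these 37 had an unadjusted p under 0.05, all negative, among them Phka2, the liver form of a phosphorylase kinase subunit (-0.11 ± 0.033 per g, p = 0.00453 in the edgeR fit), Gaa, the lysosomal glycogen hydrolase (-0.10 ± 0.035, p = 0.00870), and Pgm5 (-0.064 ± 0.022, p = 0.00963). Their share, like that of the members, is read against 12.3% of all genes. Cage gave 3 of 37, a share near the 7.36% of all genes, among them Phka2 (F = 3.95) and Gapdhs (F = 3.47). The fiber marker difference gave 2, beside 3.89% of all genes, the phosphorylases of brain and liver, Pygb (0.77 ± 0.20 SE) and Pygl (0.66 ± 0.30), ahead of Gys2 (1.18 ± 0.61), beside the estimates of adipocyte markers given above for the same term. None of them passed after adjustment.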

How the data were processed

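Skeletal muscle RNA of 16 mice was sequenced as 1 library for each mouse. The authors aligned reads with STAR 2.7.2b and counted fragments per gene with featureCounts 1.6.4, per the submitters' processing notes, on GRCm38 (mm10), and deposited raw counts that were not normalized. Symbols came from a GENCODE M21 table, which named 55144 of the 55471 gene identifiers.

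The labels gave each mouse's group, cage and weight. Counts were filtered by filterByExpr, which kept 14331 rows, and scaled by TMM. They were fitted by the quasi-likelihood test of edgeR 4.0.16 in R 4.3.3 with label, cage and body weight as terms, and p-values were adjusted by Benjamini-Hochberg over all 14331 rows at a threshold of 0.05. The p-values measure spread between separate mice. CPM used TMM-scaled library sizes, and log2 CPM a prior count of 1. DESeq2 1.42.0, limma-voom (limma 3.58.1), other scalings, filters and covariates, and leaving out each mouse were alternatives. The scripts were tested on simulated data. Totals of 15273472 to 59682677 fragments set the precision, and genes with few fragments (Aldoc, Eno2, Pgam1) are the least certain. No 2 libraries were alike within sampling noise, since the smallest chi-square per degree of freedom was 16.2.

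All members are named with levels. Tests are given for the 12 members of smallest p for the label, the 8 for body weight, cage and fiber markers, and the 3 such genes among the other pathway genes. Exceptions, chosen after their values were seen, are the members listed by count, Tpi1 and Gapdh for weight, and the length index. The members and lists were chosen with earlier results of these data known. Proteins were not analysed here, and some of the other pathway genes that the rule names are not reported here.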

Additional observations from a re-analysis of the deposited data

Results flagged for a closer look

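Within each label, the lowest or highest mouse of a member was set against its nearest neighbour, as a share of the range of the group (Dixon's ratio). Of 74 groups of mice, 7 had a mouse that stood apart, and at 1 in 20 chance alone would give 3.7. Of the 7, 3 were in mouse 9 labelled Npr1+/-, the library with the lowest length index, where log2 CPM was 7.11 for Pfkfb1 (next 6.66), 4.54 for Stbd1 (next 5.10) and 5.77 for the upstream row of Aldoa (next 6.30). In mouse 1 labelled Npr1+/+, Tpi1 was at 12.77 (next 12.21) and Gpd2 at 6.71 (next 7.06). Eno2 was at -1.12 in mouse 8 labelled Npr1+/- (next -0.21), from 7 fragments. Epm2a was at 7.11 in mouse 2 labelled Npr1+/+ (next 7.33).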

How the results depend on the processing

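Of 2085 values recomputed under alternatives, 1969 stayed the same, which for an estimate means its direction and its side of an adjusted p of 0.05, for a count within 1.5 times, and for a median within its spread. The label gave 0 adjusted and 0 unadjusted members without any single mouse, with 21 to 31 estimates below 0, but 2 unadjusted members with the label alone (3.8% of all genes, 17 below 0) and 1 with cage as the only covariate (4.05%). Replicate numbers did not pair the mice (mean correlation of same-numbered mice 0.0719 over 6 pairs, lowest 0.0312), and with a replicate block the unadjusted counts were 6 for the label (9.03% of all genes), 0 for body weight (1.48%) and 6 for fiber markers (16.6%). Body weight gave 2 adjusted members by DESeq2 (0.181%), 2 adjusted (2.32%) and 14 unadjusted (25.6%) without the label, 3 unadjusted without cage (8.21%) and 2 with the GC index (4.21%). Cage gave 1 adjusted member by DESeq2 (0.544%), and 3 unadjusted with fiber markers as covariate (3.55%), without body weight (4.26%), or without the 2 mice of highest length index (6.25%). Leaving out 1 mouse moved body weight from 0 to 12 adjusted and 6 to 15 unadjusted, cage from 0 to 6 and 2 to 14, and the positive length index count from 6 to 13, the extremes of 12, 15, 6 and 14 and the 6 for the index being without mouse 3 labelled Npr1+/- (22.1%, 37.6%, 6.08% and 28.7% of all genes for the first 4). The cage count of 2 was without mouse 3 labelled Npr1+/+ (4.72%), and it was 3 without mice 1, 4, 9 or 10 labelled Npr1+/- or mouse 6 labelled Npr1+/+ (4.48% to 6.6%). Fiber markers gave 0 to 7 unadjusted members (7 without mouse 4 labelled Npr1+/+, beside 13.1%, and 2 without mice 2 or 9 labelled Npr1+/-, beside 4.34% and 5.95%), 0 by library size only, with the length index or without the 2 mice, 3 alone (8.67%), 2 with slow markers (4.5%), and 15 (37.5%; 8 adjusted, 24.1%) with Myh4. With the sign of Myh4 turned so that higher is slower, which was chosen after seeing the data, the following estimates, but not that of Gys2, were opposite to those with the difference, at -0.71 for Hk1, -0.69 for Hk2, -0.25 for Pfkm, -0.31 for Pfkl, -0.28 for Eno1, -0.42 for Gpd2, -0.49 for Gys1, 0.14 for Epm2a, -0.0122 for Pygl and -0.20 for Pygb. Without the 2 mice, fiber estimates were -0.11 for Hk1, -0.18 for Hk2, -0.27 for Pfkl, -0.0835 for Eno1, -0.27 for Gpd2, -0.29 for Gys1 and 0.0159 for Epm2a, and Npr1 by label was -0.0125. Over single mice left out, fiber estimates ran from -0.11 to 0.93 for Hk2, -0.26 to 0.41 for Pfkl, -0.0293 to 0.48 for Eno1, -0.20 to 0.52 for Gpd2 and -0.27 to 0.55 for Gys1. Label estimates ran from -0.33 to 0.0280 for Pgam2 (0.0296 with the label alone), -0.18 to 0.00214 for Pgp and -0.0675 to 0.23 for Npr1. Share differences ran from -0.00179 to 0.00401 points for Pgam2 and -0.251 to 0.190 for Ldhb, and as differences of medians were 0.00163 for Eno3 and 0.258 for Ldhb. Correlations without 2 mice were -0.19 for Ldha and Ldhb, 0.55 for Pgam2 and Eno3 and 0.32 for Hk2 and Pfkfb3, and that of Gpd1 and Gpd2 was 0.18 by library size only. The cause was not tested where fewer mice or other terms do not give it by construction. Low fragment counts limit Aldoc, Eno2, Pgam1, Pfkp and Hk1.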
